A study of Homo sapiens with 6 samples.

Results

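The genes described here encode ligands and enzymes by which a tumour cell can restrain or engage T cells, natural killer (NK) cells and macrophages. They were chosen by name: CD274, PDCD1LG2, CD276, CD47, PVR, NECTIN2, ULBP2, NT5E, LGALS9 and TNFSF9. The platform annotation mapped 29 of the 49193 probe sets to only 1 of these genes, and the brightest set of each gave 10 of the 18129 genes tested. The cells were UMUC3-c31, which carry the name of UMUC3, an established line from a human bladder cancer. The sources used here do not say how the c31 cells were obtained. All cells were first held for 24 h in charcoal-stripped serum, which lacks most steroid. One group of 3 then received 10 nM R1881, a synthetic androgen that binds the androgen receptor, and the other group of 3 received ethanol vehicle, each for 24 h. The design text calls the 3 samples of a group biological replicates.

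Checkpoint ligands act by binding a receptor on an immune cell. PD-L1 and PD-L2 bind PD-1 and restrain T cells, CD47 binds SIRP-alpha and restrains phagocytosis, and CD155 and CD112 bind both the inhibitory receptor TIGIT and the activating receptor DNAM-1. ULBP2 is a stress-induced ligand of the activating NK receptor NKG2D, and 4-1BBL, the product of TNFSF9, stimulates T cells and NK cells through 4-1BB. CD73, the product of NT5E, makes extracellular adenosine, which dampens T cells and NK cells.

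Of the 10 genes, 1 fell with R1881, none rose and 9 did not pass the threshold of an adjusted p of 0.05 (limma, Benjamini-Hochberg over all genes). Among all genes 2.42% were called in either direction, with 1.6% higher and 0.816% lower. The gene that fell was TNFSF9, as read by its brightest probe set, where brightness was the mean over all 6 arrays. Its other set, which had the higher mean on the R1881 arrays, did not pass. At an unadjusted p under 0.05 by limma there were 2 of the 10, TNFSF9 and PVR, beside 14.3% of all genes. The arrays of the groups did not overlap for 3 of the 10 genes (CD47, PVR and TNFSF9), as for 18.5% of all genes. The median log2 change of the 10 was 0.04, that of all genes was 0, and 7 of the 10 were higher by sign. Taken as probe sets, 1 of the 29 was called lower and none higher, beside 1.54% of all probe sets called in either direction (1.12% higher and 0.427% lower). Another 3 had an unadjusted p under 0.05, making 4 of 29 beside 12.5% of all sets, and the groups did not overlap on 6 of 29, beside 16.8%. A value of 4.99 on the log2 scale was taken as background, from olfactory receptor and keratin-associated protein genes. Above it in at least 1 group lay 8 of the 10 genes and 18 of the 29 probe sets.

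**Figure D1:**
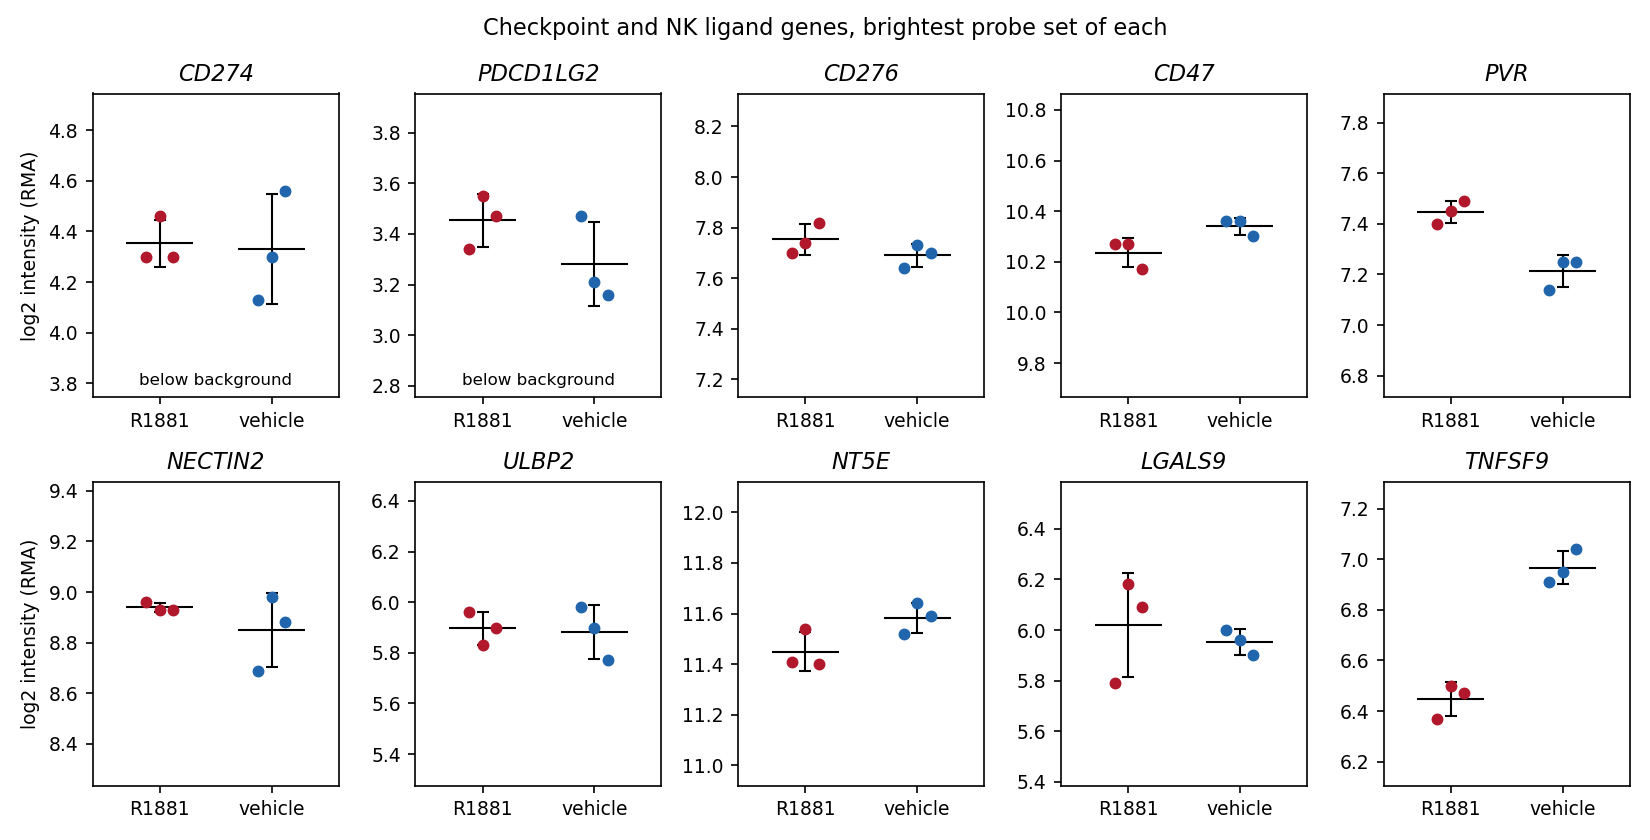
Log2 intensity of the brightest probe set of each of the 10 genes on the 3 R1881 arrays (red, left) and the 3 vehicle arrays (blue, right). Lines and bars are the mean and SD of 3 arrays, and each panel spans 1.2 log2 units around its own values. TNFSF9 is the gene whose groups lie farthest apart, at 6.37 to 6.50 with R1881 and 6.91 to 7.04 with vehicle.

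As facts of the whole series, the R1881 and vehicle arrays stood apart on principal component 1, and vehicle replicate 1 lay apart on component 2, at 11.04 against -8.21 and -6.99 for the other vehicle arrays. R1881 replicate 1 lay on the same side, at 5.69 against -0.67 and -0.87 for the other R1881 arrays. FKBP5, a common androgen-induced gene, rose by 1.49 ± 0.05 (SE) on the log2 scale (limma adjusted p = 3.22e-05). CD44, named in the series title, fell by 0.28 ± 0.05 (SE), with a limma adjusted p of 0.0468, just under the threshold. Of 14 urothelial and epithelial markers 6 lay above background. These were KRT7, KRT8 and KRT18, and, at no more than 5.08, UPK1A, GATA3 and FOXA1. KRT7 rose by 0.40 ± 0.06 (SE). KRT18 fell by 0.37 ± 0.05 (SE), from 10.75 with vehicle to 10.38 with R1881. KRT5, KRT19, EPCAM, CDH1, UPK1B, UPK2, UPK3A and PPARG stayed below background. The mesenchymal marker VIM stood at 14.06 with R1881 and 14.10 with vehicle. Of 15 immune markers 2 lay barely above background (CD3E and CSF1R, at most 5.14), and the pan-leukocyte gene PTPRC stood at 2.93 with R1881 and 3.00 with vehicle. The mean log2 level of the immune list was 4.04 to 4.10 on the R1881 arrays and 4.02 to 4.07 on the vehicle arrays. Of 5 endothelial markers TEK was called, at 5.0 with R1881, barely above background, and 3.72 with vehicle, below it. Of 8 fibroblast markers none was called, with 0 also at an unadjusted p under 0.05. What the marker changes contribute to the results below was not tested. In bulk RNA, fewer cells that express a gene and less RNA per cell cannot be told apart.

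TNFSF9, a TNF family ligand (gene 8744, GRCh38.p14 chromosome 19, bases 6531026 to 6535924), was lower with R1881. Its brightest probe set, 11735140_at, read 6.37, 6.50 and 6.47 in R1881 cells and 6.91, 6.95 and 7.04 in vehicle cells. Every R1881 array lay below every vehicle array, and the gap was several times the spread within a group. The means were 6.45 ± 0.07 with R1881 and 6.97 ± 0.07 with vehicle (SD, n = 3 each). The log2 change was -0.52 ± 0.06 (SE), a ratio to vehicle of 0.697 (95% confidence interval 0.635 to 0.765) with a limma adjusted p of 0.00492. Counted from the largest fall, this change stood in place 33 of the 18129 genes, tied with BCL2A1. The call held without any 1 of the 6 arrays, with changes of -0.55 to -0.48 and limma adjusted p of 0.0206 to 0.0328.

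The second probe set of TNFSF9 did not show that fall. Set 11735139_at read 6.60, 6.47 and 6.60 in R1881 cells and 6.60, 6.65 and 6.60 in vehicle cells, so the groups overlapped. Its log2 change was -0.06 ± 0.06 (SE), with a 95% confidence interval of -0.19 to 0.07 (limma over all probe sets, adjusted p = 0.690). Within each array the brighter set minus the other gave -0.23, 0.03 and -0.13 with R1881 against 0.31, 0.30 and 0.44 with vehicle. These differences did not overlap between groups, and the exact permutation p (two-sided) was 0.10, which is the lowest value possible with 3 arrays per group. This contrast of the sets was chosen after their values were seen. The called set was the brighter one with vehicle, at a mean of 6.97 against 6.62. With R1881 it was the dimmer one, at 6.45 against 6.56. Its choice as the brightest set over all 6 arrays was therefore not independent of the change. Both sets lay above background, and the sources used here do not say which part of the transcript each one reads. With the mean of both sets the gene changed by -0.29 with a limma adjusted p of 0.0104. In the fit over all probe sets the called set had an adjusted p of 0.00838, and 0.0501 without vehicle replicate 2.

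The promoters of TNFSF9, NT5E and PVR are shown because these genes held the smallest p-values among the 10. Each window runs from 250 bases before to 50 bases after the start of the gene, taken from RefSeq on GRCh38.p14, plus strand, and is written 5′ to 3′. Capitals mark the GC box GGGCGG, which Sp1-type factors bind, and the TATA box TATAAA, on either strand.
TNFSF9 promoter, chr19:6530776-6531075: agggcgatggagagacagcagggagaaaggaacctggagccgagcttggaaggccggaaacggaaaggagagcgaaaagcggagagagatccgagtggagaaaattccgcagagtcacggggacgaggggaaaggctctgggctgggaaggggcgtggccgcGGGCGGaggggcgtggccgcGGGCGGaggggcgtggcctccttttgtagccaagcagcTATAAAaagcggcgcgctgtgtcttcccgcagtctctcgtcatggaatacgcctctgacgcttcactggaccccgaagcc
NT5E promoter, chr6:85449833-85450132: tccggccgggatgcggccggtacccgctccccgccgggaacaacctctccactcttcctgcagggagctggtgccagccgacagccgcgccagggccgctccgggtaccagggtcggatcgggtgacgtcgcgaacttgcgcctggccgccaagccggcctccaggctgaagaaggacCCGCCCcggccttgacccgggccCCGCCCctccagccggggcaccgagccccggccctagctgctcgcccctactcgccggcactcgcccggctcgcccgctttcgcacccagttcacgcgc
PVR promoter, chr19:44643660-44643959: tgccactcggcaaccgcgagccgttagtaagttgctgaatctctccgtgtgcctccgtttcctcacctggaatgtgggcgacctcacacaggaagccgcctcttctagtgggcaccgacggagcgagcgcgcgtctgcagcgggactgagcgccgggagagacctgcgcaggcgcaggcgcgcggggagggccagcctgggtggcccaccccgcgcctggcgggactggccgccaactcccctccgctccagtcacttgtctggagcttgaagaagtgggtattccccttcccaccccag
The TNFSF9 window held 2 GC boxes and a TATA box at bases -30 to -25 from the start. The NT5E window held 2 GC boxes on the opposite strand and no TATAAA, and the PVR window held neither. Of 35116 RefSeq windows of this length 15786 hold GGGCGG on either strand and 4049 hold TATAAA. No window of the 9 genes with an entry held the androgen response element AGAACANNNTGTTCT or its arm AGAACA on either strand. Over all promoters the full element occurred in 0.00285% and the arm in 14.8%. An NF-kB motif was in no window of these genes and in 0.558% of all promoters. The AP-1 motif TGANTCA was in the ULBP2 window alone and in 7.71% of all, and the CRE motif TGACGTCA was in the NECTIN2 window alone and in 1.85% of all. These 7 motifs were searched on both strands, and TATAAA was added to the search after it had been seen in the TNFSF9 window. A match is a description of letters, and no match says only that they are not in this window.

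NT5E, the gene of the adenosine-producing ecto-enzyme CD73 (gene 4907, chromosome 6, bases 85450083 to 85495784), was lower by sign on all 3 of its probe sets, and no set passed the threshold. The brightest, 11755207_a_at, read 11.41, 11.54 and 11.40 in R1881 cells and 11.52, 11.64 and 11.59 in vehicle cells. R1881 replicate 2 lay within the vehicle range, so the groups overlapped. The log2 change was -0.13 ± 0.06 (SE), a ratio to vehicle of 0.912 with an interval of 0.829 to 1.002 (limma adjusted p = 0.362).

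The other 2 sets of NT5E gave larger differences. Set 11744681_a_at read 8.74, 8.72 and 8.79 with R1881 and 9.05, 9.08 and 8.95 with vehicle, with no overlap. Its log2 change was -0.28 ± 0.05 (SE), and the limma adjusted p over all probe sets was 0.0700. That p was 0.0116 with a trended, robust prior and 0.0246 when only sets above background were tested, which passes the threshold. It was 0.191 with a replicate block and ran from 0.107 to 0.228 without any 1 array. Set 11719174_a_at read 10.08, 9.98 and 9.95 with R1881 and 10.38, 10.20 and 10.02 with vehicle, which overlapped, with a change of -0.20 ± 0.09 (SE). With the mean of the 3 sets the gene stood at -0.20 with a limma adjusted p of 0.0835.

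PVR encodes CD155 (gene 5817, chromosome 19, bases 44643910 to 44666162), and its 4 probe sets differed in sign. The brightest, 11719179_a_at, read 7.40, 7.45 and 7.49 in R1881 cells and 7.14, 7.25 and 7.25 in vehicle cells. Every R1881 array was above every vehicle array. The log2 change was 0.23 ± 0.05 (SE), a ratio to vehicle of 1.18 with an interval of 1.08 to 1.28, and the limma adjusted p of 0.0831 did not pass. It was 0.0396 with a trended, robust prior and 0.0305 when dim genes were left out, and it ran from 0.148 to 0.229 without any 1 array.

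The remaining PVR sets lay nearer to 0. Set 11719178_a_at read 6.75, 6.73 and 6.77 with R1881 and 6.63, 6.68 and 6.69 with vehicle, again with no overlap, for a change of 0.08 ± 0.05 (SE). Set 11737539_a_at stood at 0.02 ± 0.07 (SE) with overlapping groups. Set 11719177_x_at stood at -0.08 ± 0.06 (SE), and an x in the identifier marks probes that can match other transcripts. With the mean of the 4 sets PVR stood at 0.06 with a limma adjusted p of 0.473.

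**Figure D2:**
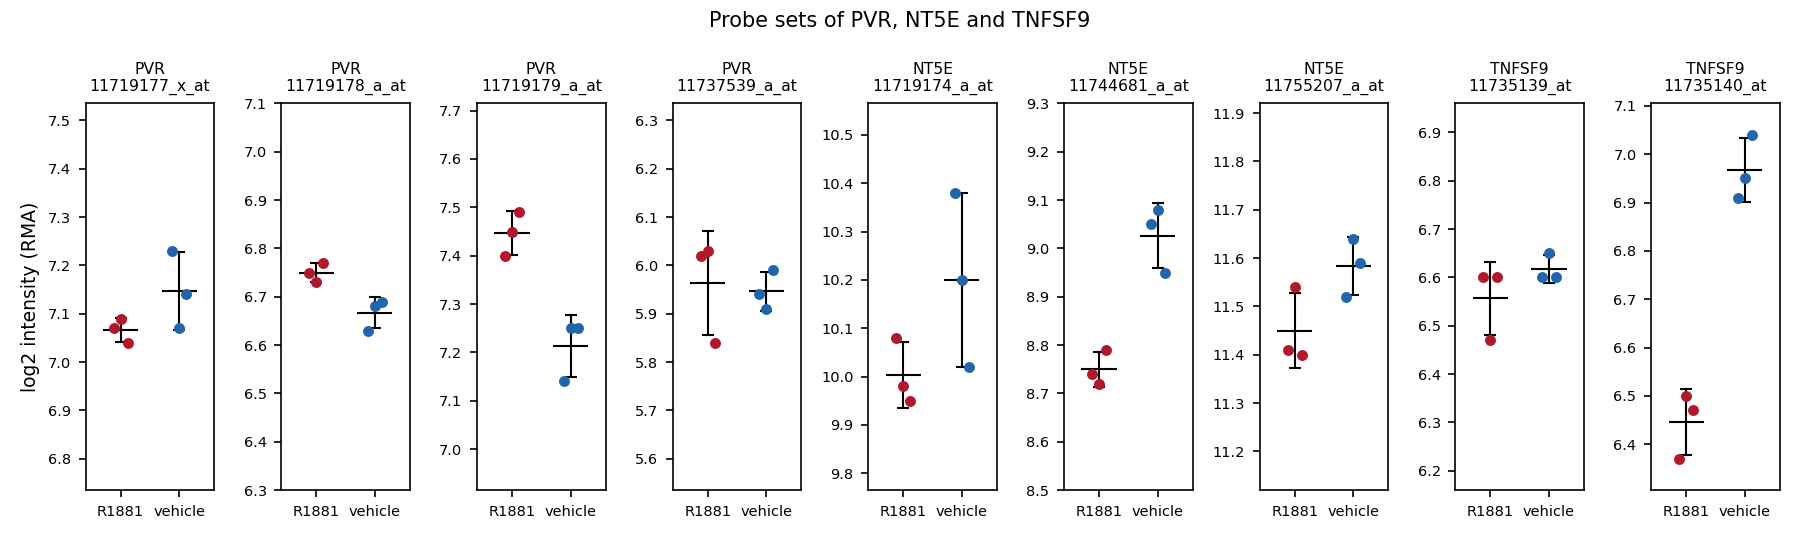
Log2 intensity of every probe set of PVR, NT5E and TNFSF9 on the 3 R1881 arrays (red, left) and the 3 vehicle arrays (blue, right), with mean and SD of 3 arrays. Each panel spans 0.8 log2 units. The 2 TNFSF9 sets differ: 11735140_at separates the groups, while 11735139_at reads 6.47 to 6.60 with R1881 and 6.60 to 6.65 with vehicle.

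NECTIN2 encodes CD112, which shares TIGIT and DNAM-1 as receptors with CD155 (gene 5819, chromosome 19, bases 44846297 to 44889223). Its brightest set, 11718065_a_at, read 8.96, 8.93 and 8.93 in R1881 cells and 8.69, 8.98 and 8.88 in vehicle cells. The groups overlapped, and vehicle replicate 1 was the lowest array. The log2 change was 0.09 ± 0.08 (SE), or 1.06-fold with an interval of 0.941 to 1.204 (limma adjusted p = 0.629), and it was 0.01 without vehicle replicate 1. The other set, 11719528_at, read 8.63, 8.77 and 8.84 with R1881 and 8.23, 8.63 and 8.63 with vehicle. There too vehicle replicate 1 stood lowest, and the change of 0.25 ± 0.12 (SE) became 0.12 without it.

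Within each array, PVR minus NECTIN2 on the brightest sets averaged -1.49 ± 0.06 with R1881 and -1.64 ± 0.09 with vehicle (SD, n = 3 each). The difference of 0.14 gave p = 0.20 in an exact two-sided permutation test, where 0.10 is the lowest value possible, so the test could not pass 0.05 with these arrays. The sign turned to -0.11 with the mean of each gene's sets.

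CD47, the ligand that restrains phagocytosis through SIRP-alpha (gene 961, chromosome 3, bases 108043091 to 108091031), was slightly lower by sign on all 3 probe sets. The brightest, 11743348_a_at, read 10.27, 10.27 and 10.17 in R1881 cells and 10.36, 10.36 and 10.30 in vehicle cells. The groups did not overlap, yet the gap between the nearest arrays was small. The log2 change was -0.10 ± 0.05 (SE), a ratio to vehicle of 0.931 with an interval of 0.860 to 1.01 (limma adjusted p = 0.396). The sets 11735329_a_at and 11743347_a_at stood at -0.09 ± 0.05 and -0.10 ± 0.07 (SE), with overlapping groups.

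CD276, the gene of the B7 family protein B7-H3 (gene 80381, chromosome 15, bases 73683944 to 73714514), did not pass. Its brightest set, 11721467_s_at, read 7.70, 7.74 and 7.82 with R1881 and 7.64, 7.73 and 7.70 with vehicle, and the groups overlapped. The log2 change was 0.06 ± 0.05 (SE), or 1.04-fold, with an interval of 0.961 to 1.14 (limma adjusted p = 0.616). Set 11749694_a_at stood at 0.14 ± 0.06 (SE), where R1881 replicate 1 and vehicle replicate 2 both read 7.29.

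The ligands of PD-1 were not above background. CD274, the gene of PD-L1 (gene 29126, chromosome 9, bases 5450542 to 5470554), read 4.30, 4.46 and 4.30 in R1881 cells and 4.13, 4.30 and 4.56 in vehicle cells on its brightest set, 11745710_a_at. PDCD1LG2, the gene of PD-L2 (gene 80380, chromosome 9, bases 5510531 to 5571282), read 3.34, 3.55 and 3.47 with R1881 and 3.47, 3.21 and 3.16 with vehicle. All 4 probe sets of each gene lay below 4.99 in both groups, so no fold is given. None of these sets passed the threshold, and at this signal a change of transcript may be missed. The limma adjusted p on the brightest sets were 0.943 for CD274 and 0.458 for PDCD1LG2. The groups did not overlap on 1 of these sets, 11753159_a_at of CD274, at 3.59, 3.55 and 3.66 with R1881 and 3.49, 3.49 and 3.45 with vehicle (limma adjusted p = 0.384). The within-array difference of CD274 minus PDCD1LG2 averaged 0.90 ± 0.07 with R1881 and 1.05 ± 0.37 with vehicle (SD, n = 3 each; exact permutation p = 0.60), and with both genes below background it says nothing of their ratio.

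ULBP2, the NKG2D ligand (gene 80328, chromosome 6, bases 149942014 to 149949235), read 5.96, 5.83 and 5.90 with R1881 and 5.98, 5.90 and 5.77 with vehicle on 11726552_x_at. The groups lay over each other, with a log2 change of 0.01 ± 0.07 (SE) and an interval of 0.905-fold to 1.13-fold (limma adjusted p = 0.946). Its other 2 sets stayed below background in both groups. LGALS9, the gene of galectin-9, a ligand of TIM-3 (gene 3965, chromosome 17, bases 27631188 to 27649560), read 5.79, 6.18 and 6.09 with R1881 and 6.0, 5.96 and 5.90 with vehicle on 11716406_x_at. R1881 replicate 1 was the lowest array of all and replicate 2 the highest, so the treated arrays were more spread than the vehicle arrays. The change was 0.07 ± 0.10 (SE), or 1.05-fold with an interval of 0.890 to 1.23 (limma adjusted p = 0.797). Leaving out R1881 replicate 1 gave 0.18, and leaving out R1881 replicate 2 gave -0.01. The brightest sets of both genes carry an x in the identifier.

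**Figure D3:**
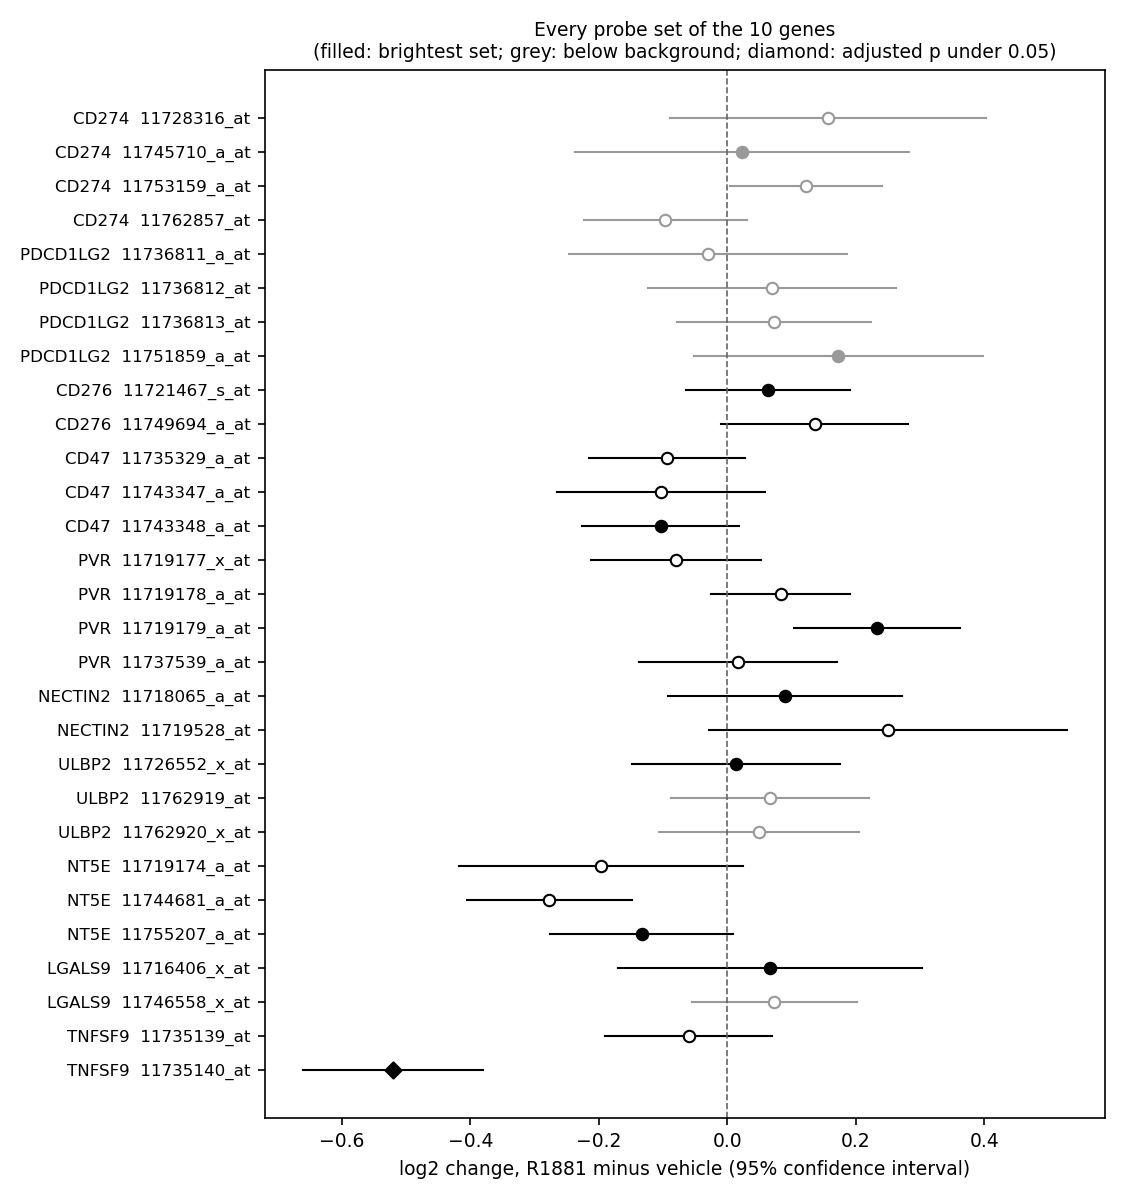
Log2 change, R1881 minus vehicle, of all 29 probe sets with 95% confidence intervals from the fit over all probe sets. Filled points are the brightest set of a gene, grey points lie below background in both groups, and the diamond is the set with an adjusted p under 0.05. Of the 29 changes, 18 are above 0 and 11 below, and the TNFSF9 set 11735140_at at -0.52 stands outside the others.

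The genes whose values lay nearest to those of TNFSF9, read by 11735140_at, were BCL2A1, NTSR1 and GLRX. Likeness was the mean absolute difference over the 6 arrays after each gene's own vehicle mean was subtracted, among genes above background. This measure picks genes with a fall of like size, so their adjusted p add no further support. BCL2A1, which encodes a BCL2 family survival protein, differed by 0.037 and changed by -0.52 ± 0.05 (SE, limma adjusted p = 0.00388). NTSR1, a neurotensin receptor gene, differed by 0.042 and changed by -0.54 ± 0.07 (SE, limma adjusted p = 0.0134). GLRX, the gene of glutaredoxin, differed by 0.043 and changed by -0.49 ± 0.06 (SE, limma adjusted p = 0.00861).

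Around the 10 genes, 7 lists of related genes were read in the same fit, and 0 of their 93 measured genes were called by limma, beside 2.42% of all genes. At an unadjusted p under 0.05 there were 15 of the 93 (16.1%), beside 14.3% of all genes. The median log2 change of the 93 was 0.03. The lists were chosen with earlier results of these data known, so their shares beside those of all genes are descriptions only. The largest differences lay among genes of MHC class I presentation, which load peptides for display to T cells. Of 17 measured there, 16 lay above background, 11 were higher by sign and the median was 0.08. An unadjusted p under 0.05 by limma was found for 7, beside 14.3% of all genes and 19.1% of those above background. Of these 7, ERAP2 was lower, at -0.12 ± 0.05 (SE), and the others were higher, among them HLA-F, which lay below background. TAP1, a subunit of the peptide transporter, read 8.56 ± 0.03 with R1881 and 8.20 ± 0.15 with vehicle (SD, n = 3 each), a change of 0.36 ± 0.08 (SE, limma adjusted p = 0.0769). PDIA3, a chaperone of class I loading, stood at 0.14 ± 0.04 (SE, limma adjusted p = 0.173). TAP1 passed with a trended, robust prior, when dim genes were left out and with the mean of each gene's sets.

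Among 13 other NK cell ligands 5 lay above background, 1 had an unadjusted p under 0.05 and the median was -0.05. That one was ULBP3, a relative of ULBP2, at 6.62 with R1881 and 6.81 with vehicle (limma adjusted p = 0.341). RAET1G came next by p and lay below background in both groups. Among 18 other inhibitory ligands the median was 0.03. BTN2A2, a butyrophilin, stood at 0.22 ± 0.07 (SE, limma adjusted p = 0.241). VTCN1, the gene of B7-H4, had an adjusted p of 0.270 (limma) and lay below background. Of 7 other costimulatory genes CD40, a receptor of the TNF receptor family, and CD70, a ligand, lay above background, at 0.10 ± 0.05 and -0.07 ± 0.05 (SE).

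For the partners of NT5E in adenosine handling, 0 of 11 genes were called, none had an unadjusted p under 0.05 by limma, and the median was -0.01. Above background lay 6 of the 11. ENTPD1, the gene of CD39 that acts before CD73, lay below it (4.60 with R1881, 4.80 with vehicle), as did the receptor gene ADORA3. These 2 are named because they held the smallest p of the list. Of 8 measured receptors and other binding partners of the member ligands, 3 lay above background. TNFRSF9, the receptor of 4-1BBL, stood close to background at 5.26 with R1881 and 5.07 with vehicle (limma adjusted p = 0.289). RGMB, a binding partner of PD-L2, stood at -0.19 ± 0.08 (SE). Of 19 genes listed as regulators of PD-L1 or CD47, 17 were higher by sign with a median of 0.07, beside 9034 of all 18129 genes and 5187 of the 11049 above background. An unadjusted p under 0.05 was found for 3 of the 19, beside 14.3% of all genes. The smallest p there belonged to IRF1, an interferon response factor, at 0.21 ± 0.06 (SE, limma adjusted p = 0.146), and to HIF1A at 0.16 ± 0.04 (SE, limma adjusted p = 0.156).

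**Figure D4:**
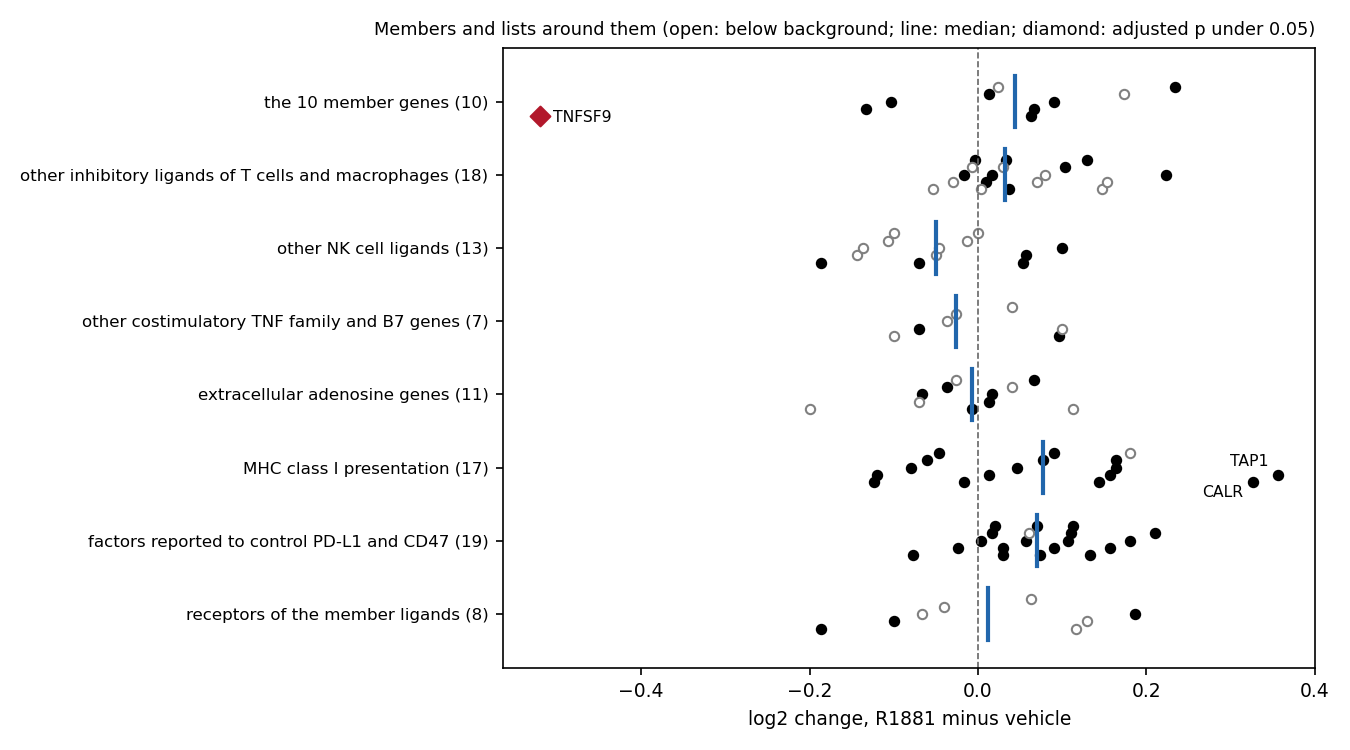
Log2 change, R1881 minus vehicle, of the 10 genes and of 7 related gene lists, 1 point per gene with the number measured in brackets. Filled points lie above background in at least 1 group, open points below it, blue lines are medians, and the red diamond is TNFSF9, the gene of these with an adjusted p under 0.05. TAP1 at 0.36 and CALR, a class I chaperone, at 0.33 are the farthest to the right.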

How the data were processed

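Total RNA of 6 UMUC3-c31 samples was hybridised to Affymetrix arrays. The deposited log2 values, 1 per probe set and array with 2 decimals, are RMA values that the authors computed, as the submitters' processing notes say. This method corrects background, equalises the distributions of the arrays and summarises probes, so a shift of all transcripts one way would be removed. Scanner files were not used here, and 3 arrays per group limit the precision.

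Probe sets were named from the platform annotation of GEO. It gave 1 symbol for 44898 sets, more than 1 for 1825 and none for 2470, and no symbol needed an update through the RefSeq gene table. Genes and probe sets were each fitted as a whole with limma 3.58.1 in R 4.3.3 (lmFit, eBayes without trend), R1881 minus vehicle, two-sided, with no filter. Values of SE and intervals (95%, unadjusted) come from these fits. Background was the 90th percentile of the means of 423 olfactory receptor and keratin-associated protein genes. The fits were tested on simulated data. The members and lists were chosen with earlier results of these data known. The text names all members, called genes of the lists or else the 2 with the smallest p, and the 3 genes most like the leading member. CALR, ERAP2, HLA-F, CD3E, CSF1R and TEK were named after their values were seen. All 15 immune, 5 endothelial, 8 fibroblast, 14 epithelial and 4 mesenchymal markers were read. Another planned check gene is not analysed here. The alternatives are given at the end. No 2 arrays were alike, with at most 9.02% of values equal in a pair.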

Additional observations from a re-analysis of the deposited data

How the results depend on the processing

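TNFSF9 kept its call and its direction in all 15 alternatives of the gene fit, with changes of -0.55 to -0.29 and limma adjusted p of 0.00102 to 0.0328. The change of -0.29 came from the mean of both its probe sets, and the other alternatives read its brightest set. No alternative of the gene fit read the other TNFSF9 set by itself. That set changed by -0.06 in the fit over all probe sets (limma adjusted p = 0.690). These alternatives therefore do not address the disagreement between the sets. PVR was the second of 2 genes called with a trended, robust prior and of 2 called when dim genes were left out. Without any 1 array, TNFSF9 stayed the 1 gene called. Of the 29 probe sets 2 were called with the trended, robust prior (TNFSF9 and NT5E) and 3 when dim sets were left out (PVR too). Leaving out 1 array gave 0 to 1 sets, and it was 0 without vehicle replicate 2. The lists around the members, with 0 calls, gave 3 with the trended, robust prior (HIF1A, PDIA3 and TAP1), 1 when dim genes were left out (TAP1), 2 with the mean of each gene's sets (PSMB10 and TAP1), and 1 (EGFR) both with the set of largest spread and with the brightest set other than _s_at and _x_at sets. The difference of PVR and NECTIN2 was -0.11 with the mean of sets and -0.017 with the set of largest spread. Of all genes 438 were called, against 895 with the trended, robust prior, 757 when dim genes were left out and 209 to 270 without 1 array. The cause of these shifts was not tested. In the gene fits that were run, the other 8 members kept their side of the threshold. CD274 and PDCD1LG2 have no value when dim genes are left out, and LGALS9 has none without _s_at and _x_at sets.

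Both groups carry the replicate numbers 1 to 3, and the labels do not say whether same-numbered arrays were paired. Such arrays correlated weakly, at 0.0327 to 0.0922, in their deviations from the group means. Still, all 6 arrays correlated best with their own number. Whether a shared replicate effect lies behind this was not tested. With a replicate block TNFSF9 remained called (limma adjusted p = 0.0235) as the 1 gene and 1 probe set of the members, 0 list genes were called, and 222 of all genes were called, against 438 without the block. For the difference of PVR and NECTIN2, 0.14, which the block cannot move, the exact sign-flip p within pairs was 0.50.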

Other observations

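Some probe sets match members together with their relatives and took no part in the comparison. The brightest of 4 sets shared by ULBP2 with RAET1L or RAET1G, 11726551_s_at, read 6.86, 6.78 and 6.71 in R1881 cells and 6.71, 6.75 and 6.66 in vehicle cells, for a log2 change of 0.08 ± 0.06 (SE). Of the other 3, all with overlapping groups, 2 stood at 0.07 and 1, 11745700_s_at, lay below background. A set shared by LGALS9 with LGALS9B and LGALS9C stood at -0.11 ± 0.11 (SE), below background.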
